A study of Mus musculus with 46 samples.

Results

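Transcripts of 10 genes of glycolysis were measured by RNA sequencing in 46 libraries of mouse EPSCs, a pluripotent stem cell kept in culture, and of cells made from them. The genes are Slc2a1, Hk2, Pfkl, Aldoa, Tpi1, Gapdh, Pgk1, Eno1, Pkm and Ldha. They were picked by symbol as members of the pathway, and all 10 were found among the 21812 genes of each of the 7 count tables. The study asked about the transcriptomes of EPSC states, about the stability of RNA in them, and about N6-methyladenosine (m6A, a methyl mark on messenger RNA) in primitive endoderm (PrE). PrE is the layer that parts from the epiblast in the blastocyst and gives rise to yolk sac endoderm.

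The 46 libraries fall into 19 groups. Cells called PrEdiff are EPSCs put in medium that induces PrE. In 3 of the tables, with 2 libraries a group, PrEdiff cells were perturbed: Virma cKO against WT, Mettl3 cKO against WT, and siIgf2bp3 against siNC. A sorted table has 2 libraries of CD140+ cells (PrE-E) and 2 of CD140- cells (EPI-E), both from PrE-inducing cultures. The embryoid table has 6 libraries of visceral endoderm (VE) and 6 of epiblast (EPI), taken with a protease from embryoids built of EPSCs and GBL-1 cells. The actinomycin D table has 2 libraries each of PrEdiff cells and of EPSCs (called EPS there) at 0, 1, 2 and 3 h of this inhibitor of transcription. The last table holds 2 libraries of untreated EPSCs. The labels name no allele, driver or inducer of the knockouts, no clone, and no separate cultures or dates. The p-values therefore measure the spread between libraries, which may be technical.

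Glycolysis splits glucose into pyruvate in the cytosol, with a small net gain of ATP, and lactate dehydrogenase turns pyruvate into lactate while it restores the NAD+ the pathway needs. Many of its genes are known targets of hypoxia-inducible factors and of Myc. Pluripotent cells in culture are known for a heavy use of this route. The encoded proteins are described here in pathway order: a glucose carrier (Slc2a1), a hexokinase (Hk2), a liver-type phosphofructokinase subunit (Pfkl), an aldolase (Aldoa), triosephosphate isomerase (Tpi1), glyceraldehyde-3-phosphate dehydrogenase (Gapdh), phosphoglycerate kinase (Pgk1), an enolase (Eno1), pyruvate kinase M (Pkm) and a lactate dehydrogenase subunit (Ldha).

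Library totals ran from 6854433 to 22280769 counts. All 12 PrE markers listed were higher in PrEdiff cells at 0 h than in EPS cells, in PrE-E than in EPI-E, and in VE than in EPI. One of them, Pdgfra, encodes CD140a, so the CD140 sort may have set its difference between PrE-E and EPI-E in advance. The call of Gata6 in PrE-E cells was lost without PrE-E replicate 1 (6.90) or replicate 2 (7.17). All 10 epiblast markers were lower in PrEdiff cells and in VE. In PrE-E cells 8 of them were lower, Zfp42 was higher (0.34, adjusted p = 0.0167) and Dppa5a did not pass the test (-0.04). Libraries in the actinomycin D table repeated each other with a chi-square of 1.21 to 1.32 per degree of freedom, little above counting error, against 1.60 to 20.6 in the other tables. The 10 genes together took 0.236% to 2.83% of a library's counts. Copies of 4 of the genes make their counts uncertain, because the files do not say how reads with several matches were treated. In GENCODE M21, 51.7% of the 100-base words of Pgk1 exons also occur in exons of other genes, most often Pgk1-rs7. The share is 20.9% for Gapdh, 20.4% for Eno1 (most often with Eno1b) and 12.3% for Pkm, and at most 0.590% for the other 6 genes. GENCODE M21 has 2 genes named Aldoa, and words shared between these were not counted.

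In PrEdiff cells at 0 h, 9 of the 10 genes were higher than in EPS cells at 0 h and 1, Hk2, was lower. Of all 14127 genes tested, 37.6% were called higher and 42.9% lower, so a call by itself is common here. Pgk1, the first ATP-forming step, stood at 1508 and 1525 CPM (counts scaled to a common library size with TMM factors) in PrEdiff cells, against 377 and 386 CPM in EPS cells. That is a log2 change of 1.99 ± 0.02 (SE), or 3.98-fold (edgeR quasi-likelihood test, Benjamini-Hochberg adjusted p = 1.06e-246). Slc2a1, the carrier that lets glucose into the cell, had 489.7 and 510.1 CPM in PrEdiff cells and 134 and 127 CPM in EPS cells (1.94 ± 0.03, 3.83-fold). Pfkl, at the committed step, had 447 and 437 CPM in PrEdiff cells and 126 and 123 CPM in EPS cells (1.83 ± 0.03). In these 3 genes the 2 PrEdiff libraries lay far above both EPS libraries and close to each other.

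The other rises were smaller. Tpi1 rose to 849.9 and 845 CPM in PrEdiff cells, against 307 and 305 CPM in EPS cells (1.47 ± 0.02). Aldoa had 2136 and 2129 CPM in PrEdiff cells and 1028 and 1022 CPM in EPS cells (1.06 ± 0.02). Gapdh had 3485 and 3539.8 CPM in PrEdiff cells and 2178 and 2159.7 CPM in EPS cells (0.70 ± 0.02). Eno1 (0.28 ± 0.02) and Pkm (0.32 ± 0.02) had the smallest rises of the 9, while Ldha rose by 0.92 ± 0.02 to 1798 and 1786 CPM in PrEdiff cells, against 944 and 946 CPM in EPS cells. Hk2, which traps glucose by phosphorylation, fell to 214 and 215 CPM in PrEdiff cells, against 261 and 261 CPM in EPS cells (-0.28 ± 0.03, adjusted p = 2.39e-24). The libraries of the 2 states did not overlap for any of the 10 genes, nor for 89.6% of all genes tested. The median of the 10 log2 changes was 0.99, beside -0.05 for all genes tested, and it stayed between 0.97 and 1.17 under 3 other scalings and DESeq2.

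Per kilobase of exon (GENCODE M21), the order of levels also differed between the states. In PrEdiff cells at 0 h the mean level was highest for Gapdh at 2349 CPM per kb, then Aldoa at 1169 and Pkm at 1131, with Hk2 lowest at 38.2. In EPS cells Gapdh at 1451 was followed by Pkm at 908 and Eno1 at 753, and the lowest were Hk2 at 46.5, Slc2a1 at 40.0 and Pfkl at 33.3 CPM per kb. Neighbours in both orders were further apart than the SD of their 2 libraries.

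**Figure D1:**
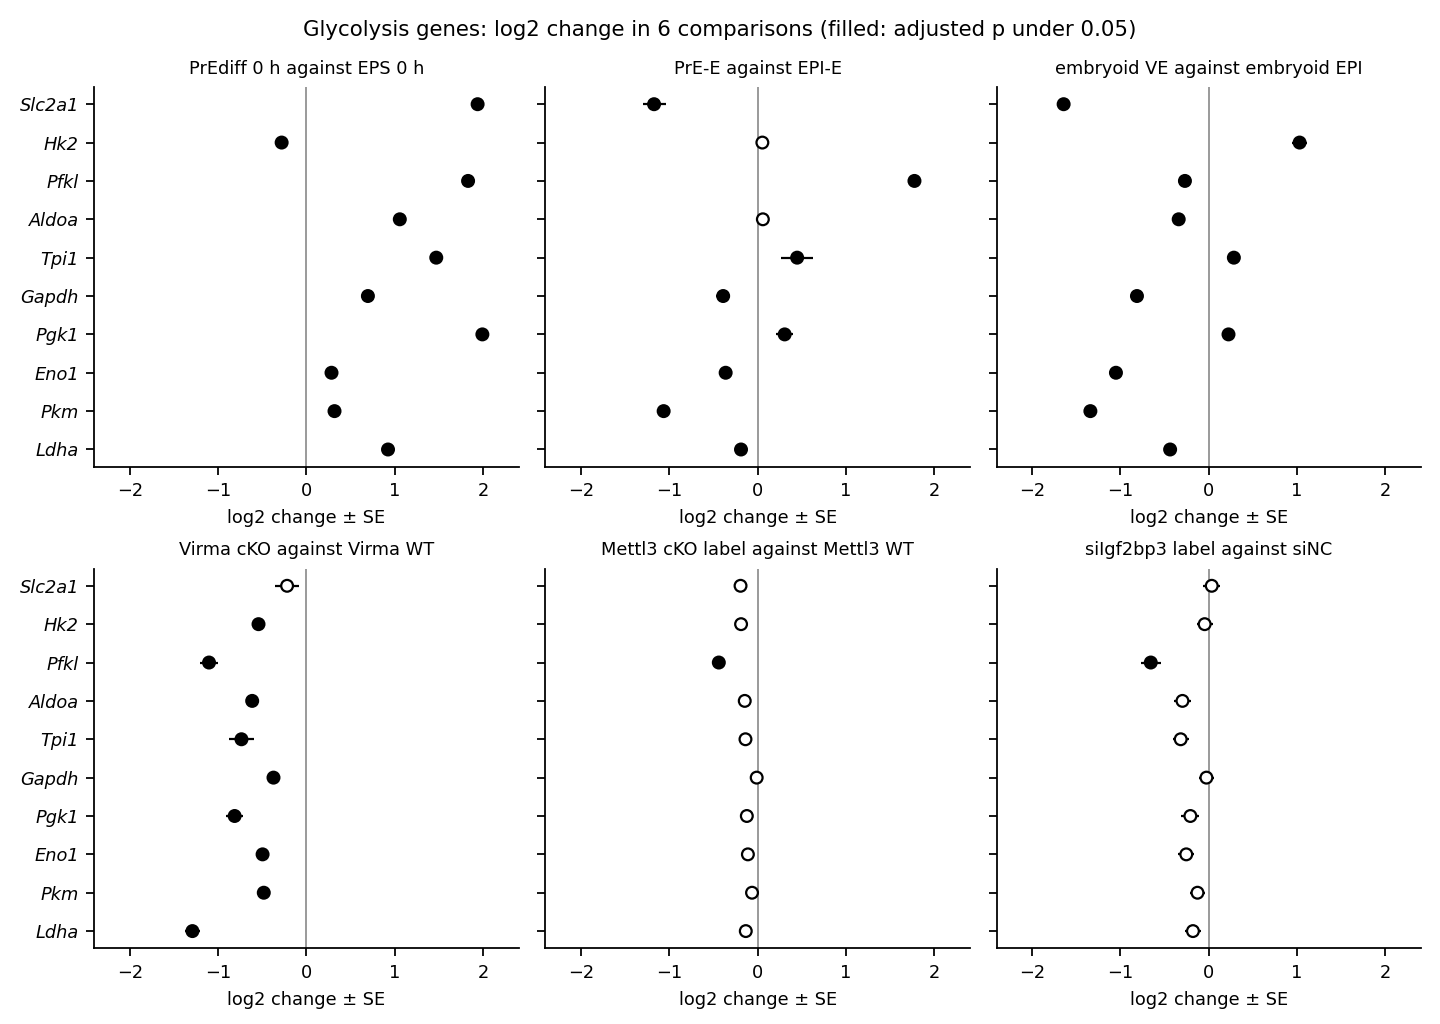
Log2 change ± SE of each gene (rows, in pathway order) in 6 comparisons (panels), with filled circles for an adjusted p under 0.05 in edgeR. PrEdiff cells at 0 h show 9 genes to the right of 0, VE shows 7 to the left (Pfkl turns to 0.05 with ribosomal scaling), and Virma cKO shows 10 to the left (Slc2a1 and Gapdh turn to 0.19 and 0.03 with that scaling).

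Among the other genes of glycolysis and its outlets, 22 rose and 10 fell of 35 tested in PrEdiff cells at 0 h. The glucose carrier gene Slc2a3 averaged 2426 ± 3.56 CPM in PrEdiff cells and 634 ± 3.23 CPM in EPS cells (SD, n = 2 each; log2 change 1.94). Slc16a3, an exporter of lactate, averaged 148 ± 0.311 CPM in PrEdiff cells and 19.4 ± 0.784 CPM in EPS cells (2.92). Gpi1, the isomerase between hexokinase and phosphofructokinase, rose by 1.19, and the muscle-type mutase gene Pgam2 by 5.56. Of 8 genes for factors and oxygen sensors known to act on the pathway, 4 rose and 4 fell. The prolyl hydroxylase genes Egln1 (3.39 ± 0.04) and Egln3 (1.66), known targets of the hypoxia factors that they help to degrade, rose with Vhl (0.71) and Arnt (0.44). Myc (-2.18 ± 0.06), Epas1 (-2.18), Mycn (-1.53) and Hif1a (-0.58) fell. Trophoblast markers took 0.0439% to 0.0449% of PrEdiff counts and 0.0104% to 0.0107% of EPS counts. Of 9 tested, 5 were higher (Krt7, Krt8, Krt18, Ascl2 and Hand1) and 2 lower (Tfap2c and Eomes). Fibroblast markers took 0.0185% to 0.0192% of PrEdiff counts and 0.0252% to 0.0255% of EPS counts, with 3 of 12 higher and 8 lower. Their part in the result was not tested.

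Stretches just before a RefSeq start of 3 of these genes are shown, since Pgk1 and Ldha rose and Hk2 fell in PrEdiff cells, and the core letters of the hypoxia response element, ACGTG, lie in all of them. Each is the 250 bases before a RefSeq start on GRCm38.p6, read 5′ to 3′ on the gene's strand, with ACGTG on either strand (CACGT when read on the other) in capitals. The windows are chrX:106186850-106187099 (+ strand) for Pgk1, chr7:46845554-46845803 (+ strand) for Ldha and chr6:82774455-82774704 (- strand) for Hk2.
Pgk1: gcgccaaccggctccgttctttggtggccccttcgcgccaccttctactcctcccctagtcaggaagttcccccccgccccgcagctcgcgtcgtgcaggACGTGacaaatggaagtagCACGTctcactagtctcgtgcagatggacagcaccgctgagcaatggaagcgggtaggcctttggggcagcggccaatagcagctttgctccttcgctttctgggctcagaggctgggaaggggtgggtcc
Ldha: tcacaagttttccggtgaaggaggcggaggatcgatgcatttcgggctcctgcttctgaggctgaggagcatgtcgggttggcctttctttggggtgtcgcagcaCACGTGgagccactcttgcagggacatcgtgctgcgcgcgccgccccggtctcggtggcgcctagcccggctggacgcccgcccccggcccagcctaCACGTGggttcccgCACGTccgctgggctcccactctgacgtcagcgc
Hk2: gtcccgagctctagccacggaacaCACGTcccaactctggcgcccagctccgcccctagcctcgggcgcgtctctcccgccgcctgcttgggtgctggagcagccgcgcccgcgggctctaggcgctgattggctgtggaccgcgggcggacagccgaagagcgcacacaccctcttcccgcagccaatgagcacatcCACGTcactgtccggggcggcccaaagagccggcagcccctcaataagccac
ACGTG occurs 2 times in the Pgk1 window, 5 times in this Ldha window and 2 times in the Hk2 window, counting both strands. Ldha has 1 further window, at chr7:46846832-46847081, which holds 0. Both Ldha windows lie inside the span of the gene, chr7:46842274-46855627, before starts within it and not at its 5′ end. The printed Ldha window also holds the E-box letters CACGTG, whose 2 strands each contain ACGTG, so these matches overlap. Over all genes, 16.6% of 32851 windows of this length hold ACGTG, 28.2% hold GCGTG and 6.02% hold CACGTG. Of the 16 windows of the 10 genes, 7 hold ACGTG, 7 hold GCGTG and 13 hold either (38.6% of all windows do). Tpi1 is the only one of the 10 with neither in any window. Most of these genes have 1 window and Aldoa, Eno1, Pkm and Ldha have 2 or 3. For Aldoa 2 windows overlap each other, as do 2 for Eno1, so the same letters are counted in both. Those 2 windows of Eno1 hold 245 and 250 bases of its own exons. The letters describe the sequence only: genes with them both rose and fell.

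Under actinomycin D, which stops new transcripts, a message that lasts longer than the average takes a growing share of the library. The slopes below are log2 units per hour, with TMM factors unless another scaling is named. A gain or loss of share is meant relative to that scaling, and with TMM factors it is no share of all counts. With library totals the slopes of the 10 genes were lower, for Gapdh 0.20 in PrEdiff cells and 0.13 in EPS cells. In PrEdiff cells 9 of the 10 genes gained share and 1 lost it, where 20.3% of 14127 genes tested gained and 16.6% lost. In EPS cells 8 gained and 2 lost, where 18.2% gained and 18.5% lost. Gapdh had 3485 and 3539.8 CPM at 0 h, 4785 and 4877 at 1 h, 6335 and 6412 at 2 h and 6999 and 7341 at 3 h in PrEdiff cells. In EPS cells it had 2178 and 2159.7 CPM at 0 h, 3278 and 3146 at 1 h, 3917 and 3932 at 2 h and 3553 and 3528 at 3 h. Its slope was 0.35 ± 0.05 in PrEdiff cells and 0.24 ± 0.06 in EPS cells, and its level at 3 h was 2.04 times that at 0 h in PrEdiff cells and 1.63 times in EPS cells.

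The other gaining genes moved alike. Pgk1 had the smallest adjusted p of the 10 in both states (0.32 ± 0.03, adjusted p = 9.80e-07 in PrEdiff cells; 0.25 ± 0.03, adjusted p = 2.73e-06 in EPS cells). Aldoa, Tpi1, Eno1, Pkm, Ldha and Pfkl had slopes of 0.24 to 0.31 in PrEdiff cells and 0.17 to 0.25 in EPS cells. In EPS cells 6 of the 8 gaining genes, all but Pgk1 and Eno1, had a lower mean at 3 h than at 2 h, by little in Pfkl and Pkm. The gain of Aldoa in EPS cells (adjusted p = 0.0144) was lost without either EPS library at 0 h (adjusted p = 0.102 and 0.103) and with library totals (0.06, adjusted p = 0.182). Hk2 lost share in both states. It had 214 and 215 CPM at 0 h, 180.2 and 179 at 1 h, 150.0 and 151 at 2 h and 144 and 149 at 3 h in PrEdiff cells, a slope of -0.19 ± 0.04 (adjusted p = 0.00222). In EPS cells it had 261 and 261 CPM at 0 h and 176 and 177 at 3 h, also a slope of -0.19 ± 0.04 (adjusted p = 0.00152).

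**Figure D2:**
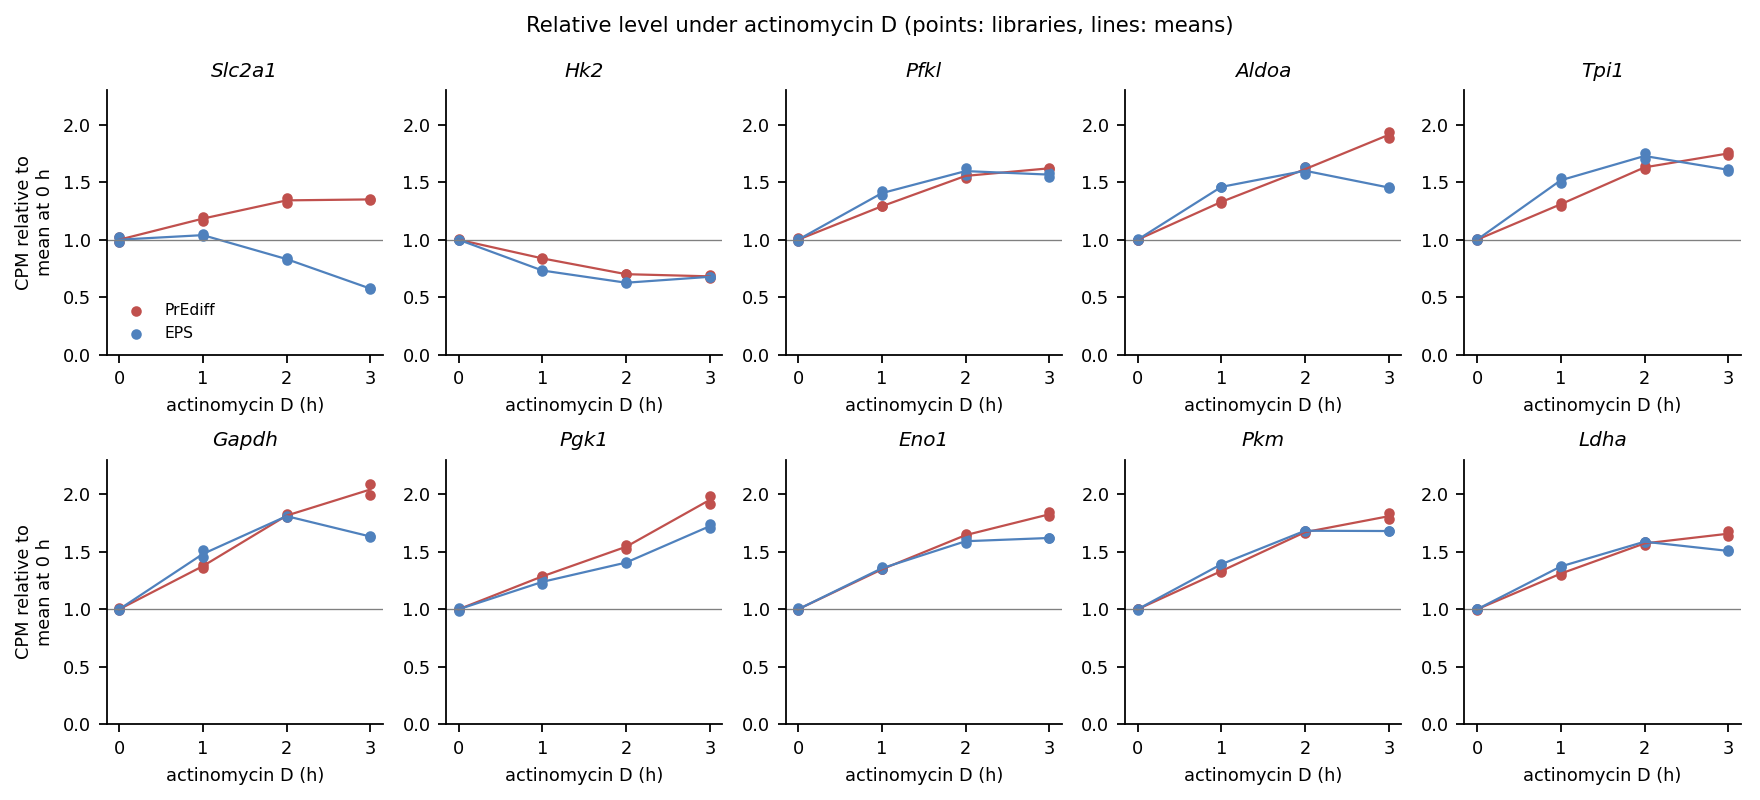
CPM of each gene relative to its mean at 0 h (vertical axis) by hours of actinomycin D (horizontal axis), with points for libraries and lines for means, in PrEdiff and EPS cells. Slc2a1 is at 1.35 in PrEdiff cells and 0.575 in EPS cells at 3 h, while Hk2 is at 0.682 in PrEdiff cells and 0.677 in EPS cells.

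Slc2a1 was the gene whose course differed between the states. In PrEdiff cells it had 489.7 and 510.1 CPM at 0 h, 583 and 601 at 1 h, 660.2 and 681 at 2 h and 672 and 678 at 3 h. In EPS cells it had 134 and 127 CPM at 0 h, 137 and 134 at 1 h, 109.8 and 107 at 2 h and 74.7 and 75.3 at 3 h. The PrEdiff libraries gained up to 2 h and then levelled, while the EPS libraries were flat at 1 h and lower at each time after. The slopes were 0.15 ± 0.04 (adjusted p = 0.0162) in PrEdiff cells and -0.27 ± 0.05 (adjusted p = 0.000240) in EPS cells. The difference of the slopes was 0.42 ± 0.06 (edgeR interaction, adjusted p = 0.00491), 1 of 10 genes called where 1.13% of 14127 genes had a higher and 0.142% a lower slope in PrEdiff cells. Differences of the other 9 genes lay between -0.00 and 0.13 and did not pass the test. They turned with the times used: at 3 h against 0 h alone all 10 genes were called higher in PrEdiff cells, as were 33.1% of all genes tested, and at 2 h against 0 h alone 6 were called lower, as were 16.3% of all. Without the 3 h libraries the Slc2a1 difference was 0.26 (adjusted p = 0.0118), and without both EPS libraries at 3 h it was 0.28 (adjusted p = 0.00381). With ribosomal scaling it was 0.27 and not called (adjusted p = 0.662). The PrEdiff gain of Slc2a1 by itself was 0.00279 with library totals, turned to -0.23 with ribosomal scaling, and missed the threshold without PrEdiff 0 h replicate 1 (0.13, adjusted p = 0.0900) or replicate 2 (0.14, adjusted p = 0.0697).

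The scaling sets the level of every slope. Ribosomal protein genes took 9.38% to 9.43% of counts at 0 h and 15.0% to 15.1% at 3 h in PrEdiff cells. In EPS cells they took 8.97% to 8.98% at 0 h, 17.2% to 17.3% at 2 h and 11.4% at 3 h, so the EPS libraries at 3 h stood apart from the trend. Scaled to ribosomal protein genes, 0 of the 10 genes gained and 2, Slc2a1 and Hk2, lost share in each state, with medians of -0.10 in PrEdiff cells and -0.01 in EPS cells. Over all genes tested this scaling also called very few gains and many losses in each state, with the counts given further below. The median of all genes tested was then -0.35 in PrEdiff cells and -0.17 in EPS cells, against 0.02 and 0.05 with TMM factors. The medians of the 10 genes lay above those of all genes under each of these scalings. With TMM factors they were 0.28 in PrEdiff cells and 0.22 in EPS cells.

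**Figure D3:**
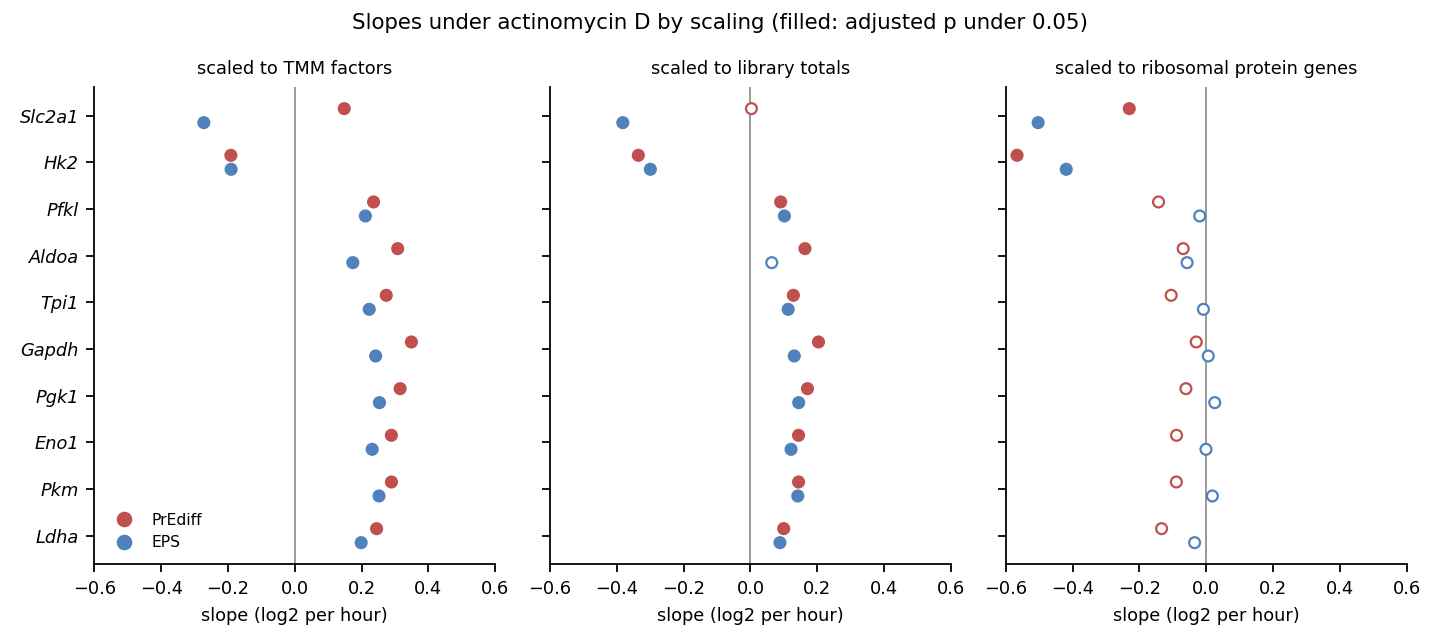
Slope of each gene under actinomycin D (log2 per hour, horizontal axis) in PrEdiff and EPS cells under 3 scalings (panels), filled where the adjusted p is under 0.05. With ribosomal scaling the other 8 genes sit between -0.14 and 0.03 and only Slc2a1 and Hk2 are filled, at -0.23 and -0.57 in PrEdiff cells and -0.50 and -0.42 in EPS cells. Over all genes tested, losses far outnumbered gains with that scaling.

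With TMM factors more of the other pathway genes gained than lost share: 19 gained and 1 lost of 35 tested in PrEdiff cells, and 16 gained and 2 lost in EPS cells. The 4 with the smallest p in PrEdiff cells were the aldolase gene Aldoc (0.31), Gpi1 (0.32), the mutase gene Pgam1 (0.24) and the muscle phosphofructokinase gene Pfkm (0.19), all of which turned negative with ribosomal scaling, while Pgam1 and Pfkm were not called with library totals either (0.09 and 0.05). In EPS cells they were Pgam1 (0.24), the pyruvate dehydrogenase component Dlat (0.15), the platelet phosphofructokinase gene Pfkp (0.18) and Pfkm (0.17), of which Pgam1 alone stayed positive with that scaling (0.02, not called), and it alone was called with library totals. Of the regulators, 0 gained and 3 lost in each state. Myc (-0.88 ± 0.07 in PrEdiff cells, -1.24 ± 0.07 in EPS cells), Mycn (-0.67 and -1.13) and Egln3 (-0.11 and -0.19) were those, and the PrEdiff fall of Egln3 was lost without PrEdiff 3 h replicate 2 (-0.08, adjusted p = 0.124). The slope of Mycn was higher in PrEdiff cells by 0.46 ± 0.07 (adjusted p = 0.00432), and by 0.32 with ribosomal scaling, where it was not called (adjusted p = 0.662). Without the 3 h libraries it was 0.20 and not called (adjusted p = 0.0771).

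In PrE-E cells, 3 of the 10 genes were higher than in EPI-E cells and 5 were lower, where 28.3% of 12423 genes tested were higher and 29.5% lower. Pfkl had the largest change, with 400.2 and 364 CPM in PrE-E cells and 113 and 110.3 CPM in EPI-E cells (log2 change 1.78 ± 0.08, 3.42-fold, adjusted p = 8.85e-10). Slc2a1 was lower, at 46.9 and 49.9 CPM in PrE-E cells and 118 and 100.04 CPM in EPI-E cells (-1.17 ± 0.13, adjusted p = 5.67e-06). Pkm, the last ATP-forming step, had 609 and 585 CPM in PrE-E cells and 1254 and 1242 CPM in EPI-E cells (-1.06 ± 0.05, adjusted p = 1.25e-09). The groups of each of these genes were far apart. Libraries of PrE-E and EPI-E cells did not overlap for 9 of the 10 genes, and for 79.9% of all genes tested. Gapdh (-0.39 ± 0.08) and Eno1 (-0.36 ± 0.05) were lower, and with ribosomal scaling neither was called (-0.13 and -0.10).

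Small changes in the sorted cells depended on single libraries or on the scaling. Tpi1 had 90.7 and 87.2 CPM in PrE-E cells and 80.1 and 49.98 CPM in EPI-E cells (0.45 ± 0.18, adjusted p = 0.0492). It missed the threshold without EPI-E replicate 2 (0.15, adjusted p = 0.453), without either PrE-E library (adjusted p = 0.195 and 0.181) and with RLE factors, library totals, DESeq2 or a filter of 1 CPM. Pgk1 (0.31 ± 0.09, adjusted p = 0.0144) missed it without PrE-E replicate 2 (0.16), without EPI-E replicate 1 (0.25) and with library totals. Ldha (-0.19 ± 0.07, adjusted p = 0.0300) missed it without EPI-E replicate 1 (-0.22) or EPI-E replicate 2 (-0.15), and stood at 0.07 with ribosomal scaling. Hk2 was 0.05 ± 0.07 and Aldoa 0.06 ± 0.06, neither called, turning to -0.03 and -0.02 with library totals, while ribosomal scaling called both at 0.31 and 0.32.

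Of the isoenzymes and outlets, 10 of 31 tested were higher in PrE-E cells and 10 lower. Slc2a3 averaged 1428 ± 42.6 CPM in PrE-E cells and 313 ± 1.57 CPM in EPI-E cells (SD, n = 2 each; 2.19). Hkdc1, a hexokinase-domain gene, averaged 199.9 ± 17.3 CPM in PrE-E cells and 0.294 ± 0.229 CPM in EPI-E cells (8.88). Pdk1, the kinase that shuts off pyruvate dehydrogenase, was at -3.94 and Slc16a3 at -3.38. Of the regulators, Epas1 (2.56 ± 0.08), Egln1 (1.49) and Hif1a (0.33) rose and Myc (-6.26), Egln3 (-1.41) and Arnt (-0.45) fell. The fall of Arnt was lost with ribosomal scaling (-0.20) and without PrE-E replicate 1 (-0.22, adjusted p = 0.100). Fibroblast markers took 0.0390% to 0.0402% of PrE-E counts and 0.0204% to 0.0215% of EPI-E counts, with 5 of 11 tested higher and 0 lower. Trophoblast markers took 0.0323% to 0.0334% of PrE-E counts and 0.00516% to 0.00577% of EPI-E counts. Of 5 tested, 4 were higher (Cdx2, Krt8, Krt18 and Eomes) and 1 was lower (Tfap2c at -6.07). Ascl2, Elf5 and Hand1 were at 0 in PrE-E cells and Cdx2 was at 0 in EPI-E cells. The part of either was not tested.

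In VE, 3 of the 10 genes were higher than in EPI and 7 were lower, where 34.5% of 11254 genes tested were higher and 38.0% lower. Slc2a1 ran from 134 through a median of 152 to 173 CPM in the 6 VE libraries, and from 447 through 475 to 518 CPM in the 6 EPI libraries (-1.64 ± 0.06, 3.12-fold lower, adjusted p = 7.91e-16). Pkm had a lowest, median and highest value of 2149, 2215 and 2301 CPM in VE, and of 5427, 5522 and 6004 CPM in EPI (-1.34 ± 0.03, adjusted p = 3.29e-19). Eno1 had 2891, 3014 and 3142 CPM in VE and 6006, 6176 and 6638 CPM in EPI (-1.05 ± 0.03). All VE libraries lay below all EPI libraries for these 3 genes. Gapdh (-0.81 ± 0.04), Ldha (-0.44 ± 0.03), Aldoa (-0.34 ± 0.03) and Pfkl (-0.27 ± 0.05) were lower as well, and with ribosomal scaling Aldoa was -0.02 and not called and Pfkl turned to 0.05.

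Hk2 was the member with the largest rise in VE. Its lowest, median and highest values were 195, 215 and 239 CPM in VE and 87.3, 104 and 126 CPM in EPI (1.03 ± 0.08, 2.04-fold, adjusted p = 4.29e-10). Tpi1 had 1139, 1216 and 1309.8 CPM in VE and 971, 1003 and 1029.9 CPM in EPI (0.28 ± 0.04). Pgk1 had 571, 592 and 639.7 CPM in VE and 479, 508 and 559 CPM in EPI (0.22 ± 0.05). The VE and EPI libraries of each of the 10 genes did not overlap, which held for 55.3% of all genes tested, and the exact two-sided permutation p was 0.00216 for every gene, the smallest that the 924 splits of 6 against 6 libraries allow. Per kilobase, Eno1 (2453 CPM per kb), Pkm (2157) and Gapdh (2027) led in EPI, while in VE Aldoa (1311) led and Eno1 (1185 ± 35.7), Gapdh (1155 ± 69.6) and Ldha (1105 ± 47.9, SD, n = 6 each) followed with ranges of 1 SD that overlapped. The 10 genes made up 1.34% to 1.43% of VE counts and 2.35% to 2.51% of EPI counts.

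**Figure D4:**
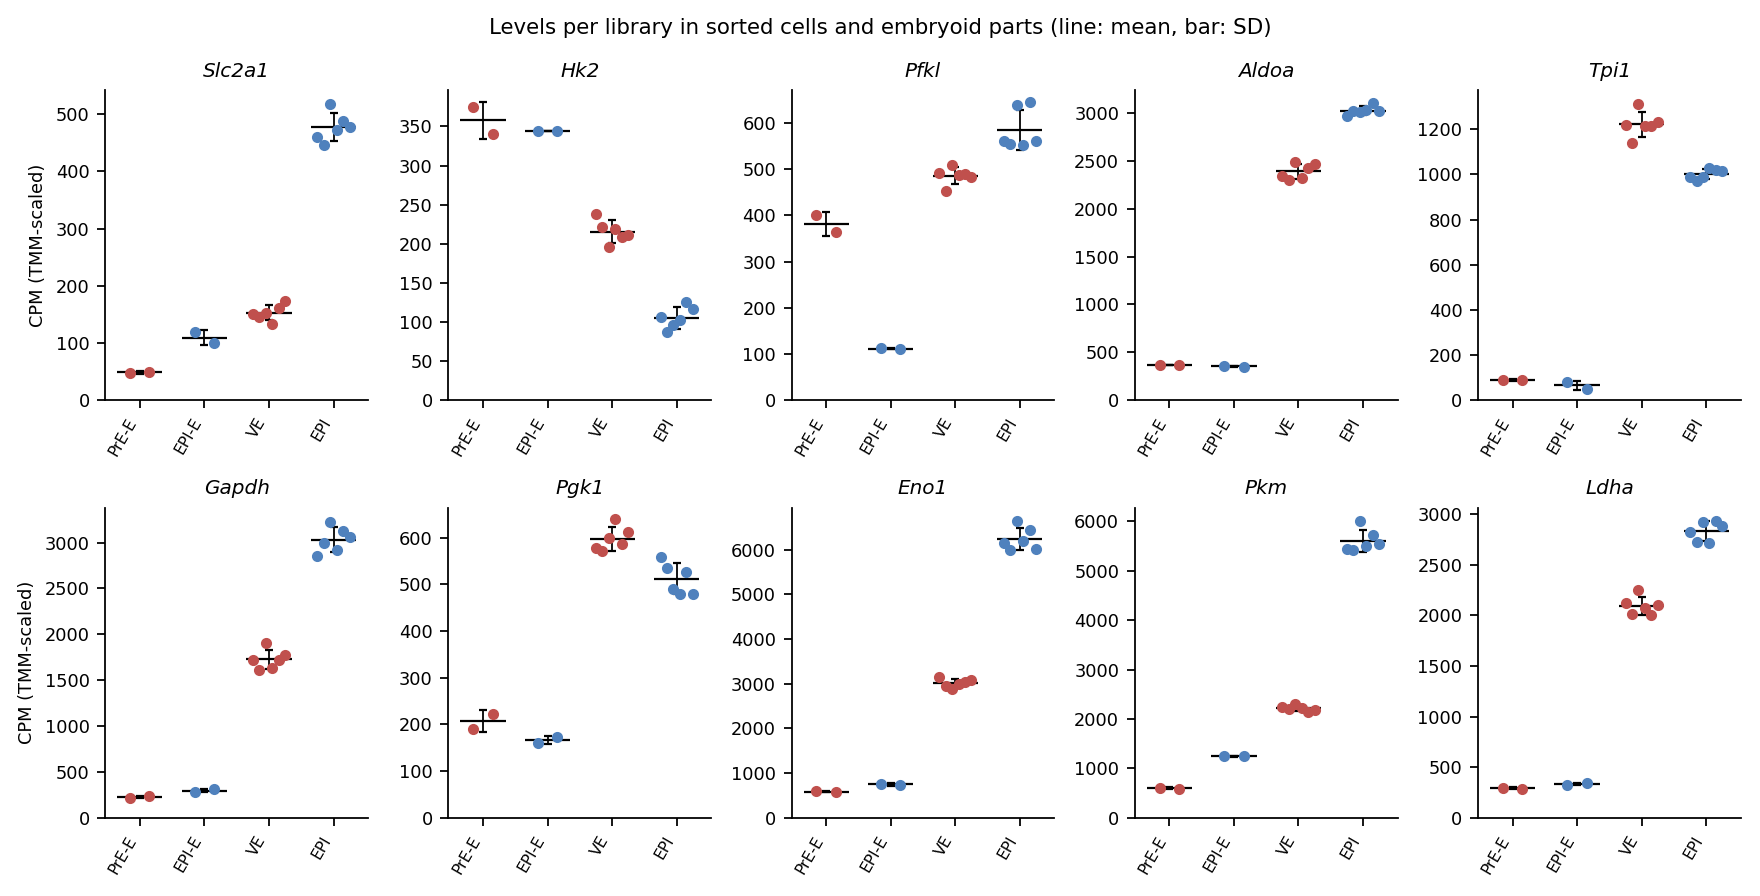
CPM of each gene per library in PrE-E and EPI-E cells and in embryoid VE and EPI (points, with a line for the mean and a bar for the SD; the vertical axes start at 0). Slc2a1 and Pkm are lower in PrE-E than in EPI-E and in VE than in EPI, while Pfkl is higher in PrE-E and lower in VE (turning to 0.05 in VE with ribosomal scaling).

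Of the other pathway genes, 10 of 30 tested were higher in VE and 16 lower. Slc2a3 averaged 1130.1 ± 45.9 CPM in VE and 209 ± 14.3 CPM in EPI (SD, n = 6 each; 2.43). Ldhb, the other main lactate dehydrogenase subunit, was at -3.95 and Eno1b at -1.62. Egln1 (1.02) rose and Myc (-8.46), Egln3 (-3.24), Mycn (-2.55) and Arnt (-0.51) fell, the last not called with ribosomal scaling (-0.19). Trophoblast markers took 0.0709% to 0.0821% of VE counts and 0.0196% to 0.0219% of EPI counts. Of the 4 tested, 3 were higher in VE (Krt8 at 2.09, Krt18 at 1.95 and Eomes at 4.53) and 1 was lower (Ascl2 at -4.39). Elf5 was at 0 in EPI. Of the 12 fibroblast markers only Col5a1 had enough counts to be tested; Col3a1 and Lum were at 0 in both states, and Prrx1 and Thy1 also in VE. Their sums were 0.000464% to 0.000757% in VE and 0.000308% to 0.00128% in EPI. The part of the trophoblast markers' change in the result was not tested.

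Most of the genes thus moved in different directions in the pairs of states. Slc2a1, Gapdh, Eno1, Pkm and Ldha were higher in PrEdiff than in EPS cells. They were lower in PrE-E than in EPI-E cells and in VE than in EPI. With ribosomal scaling Gapdh and Eno1 were not called in PrE-E cells and Ldha stood at 0.07. The fall of Ldha there was also lost without either EPI-E library. Aldoa was higher in PrEdiff cells and, with TMM factors, lower in VE. Tpi1 and Pgk1 alone were higher in each pair, though their calls in PrE-E cells were lost in some settings. Pfkl was higher in PrEdiff and PrE-E cells and, with TMM factors, lower in VE, and Hk2 was lower in PrEdiff cells and higher in VE. The tables were made from different material, and the differences between them were not tested. Table and state cannot be told apart in levels, since PrEdiff cells also differed between tables: Gapdh averaged 3512 ± 38.8 CPM in PrEdiff cells at 0 h, 2930 ± 0.945 CPM in siNC cells, 2672 ± 145 CPM in Mettl3 WT cells and 494 ± 38.3 CPM in Virma WT cells (SD, n = 2 each).

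Virma encodes a scaffold of the complex that writes m6A. In Virma cKO cells Virma itself averaged 61.1 ± 9.25 CPM, against 108 ± 2.19 CPM in WT cells (SD, n = 2 each; -0.82 ± 0.12, adjusted p = 1.12e-06). Of the 10 glycolysis genes 9 fell and 0 rose, where 18.0% of 13113 genes tested fell and 15.1% rose. Ldha fell to 119.8 and 109 CPM in cKO cells, against 292 and 269 CPM in WT cells (-1.29 ± 0.08, 2.45-fold lower, adjusted p = 2.20e-14). Pfkl fell to 65.8 and 71.8 CPM in cKO cells, against 147 and 149 CPM in WT cells (-1.10 ± 0.10, adjusted p = 1.37e-10). Pgk1 fell to 99.2 and 99.7 CPM in cKO cells, against 181 and 168 CPM in WT cells (-0.81 ± 0.09). In each of these genes both cKO libraries lay well below both WT libraries. Such separation is common here: the 2 groups did not overlap for any of the 10 genes, nor for 65.4% of all genes tested.

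Tpi1 (-0.74 ± 0.14), Aldoa (-0.61 ± 0.07), Hk2 (-0.54 ± 0.07), Eno1 (-0.50 ± 0.07), Pkm (-0.48 ± 0.06) and Gapdh (-0.37 ± 0.07, which turns to 0.03 with ribosomal scaling) fell by less. Slc2a1 had 51.9 and 55.5 CPM in cKO cells and 68.9 and 56.4 CPM in WT cells, which did not pass the test (-0.22 ± 0.14, adjusted p = 0.241) and was 0.19 when scaled to ribosomal protein genes. The 9 falls were also called without any 1 of the 4 libraries, where the lone library of a group is assumed to vary like the other pair. With ribosomal scaling 4 of the 10 genes fell (Pfkl, Aldoa, Pgk1 and Ldha), where 5.63% of all genes tested fell. Hk2 (-0.14), Tpi1 (-0.33), Eno1 (-0.09) and Pkm (-0.08) were then not called. The median of all genes tested was then 0.42 and that of the 10 genes -0.17, beside 0.02 and -0.58 with TMM factors. The 10 genes made up 0.236% to 0.252% of cKO counts and 0.315% to 0.330% of WT counts.

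Markers of several cell types moved with these falls. All 12 PrE markers fell, and together they took 0.177% to 0.179% of cKO counts and 0.793% to 0.806% of WT counts, with none at 0. Of the 12 fibroblast markers 11 rose, with sums of 0.278% to 0.283% of cKO counts and 0.101% to 0.102% of WT counts and none at 0. Of the 10 epiblast markers 5 fell and 0 rose, with sums of 0.0975% to 0.0996% in cKO and 0.138% to 0.142% in WT libraries. Of 9 trophoblast markers tested Krt8 and Krt18 rose and Eomes fell. Mitochondrial transcripts took 2.59% to 2.72% of cKO counts and 2.38% to 2.43% of WT counts. The part of any of these in the glycolysis results was not tested, and in such bulk libraries fewer cells of a kind and less RNA per cell cannot be told apart. Of the other pathway genes 5 rose and 5 fell of 31 tested, with Slc2a3 (-1.30 ± 0.07), Hkdc1 (-3.73), Pfkp (-1.39) and Ldhb (1.21) of smallest p. Among the regulators Epas1 (-1.32), Mycn (-1.09) and Egln1 (-0.44) fell and 0 rose. The fall of Egln1 was lost with library totals (-0.26) and ribosomal scaling (-0.04), and without WT replicate 1 (-0.41) or cKO replicate 1 (-0.42).

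**Figure D5:**
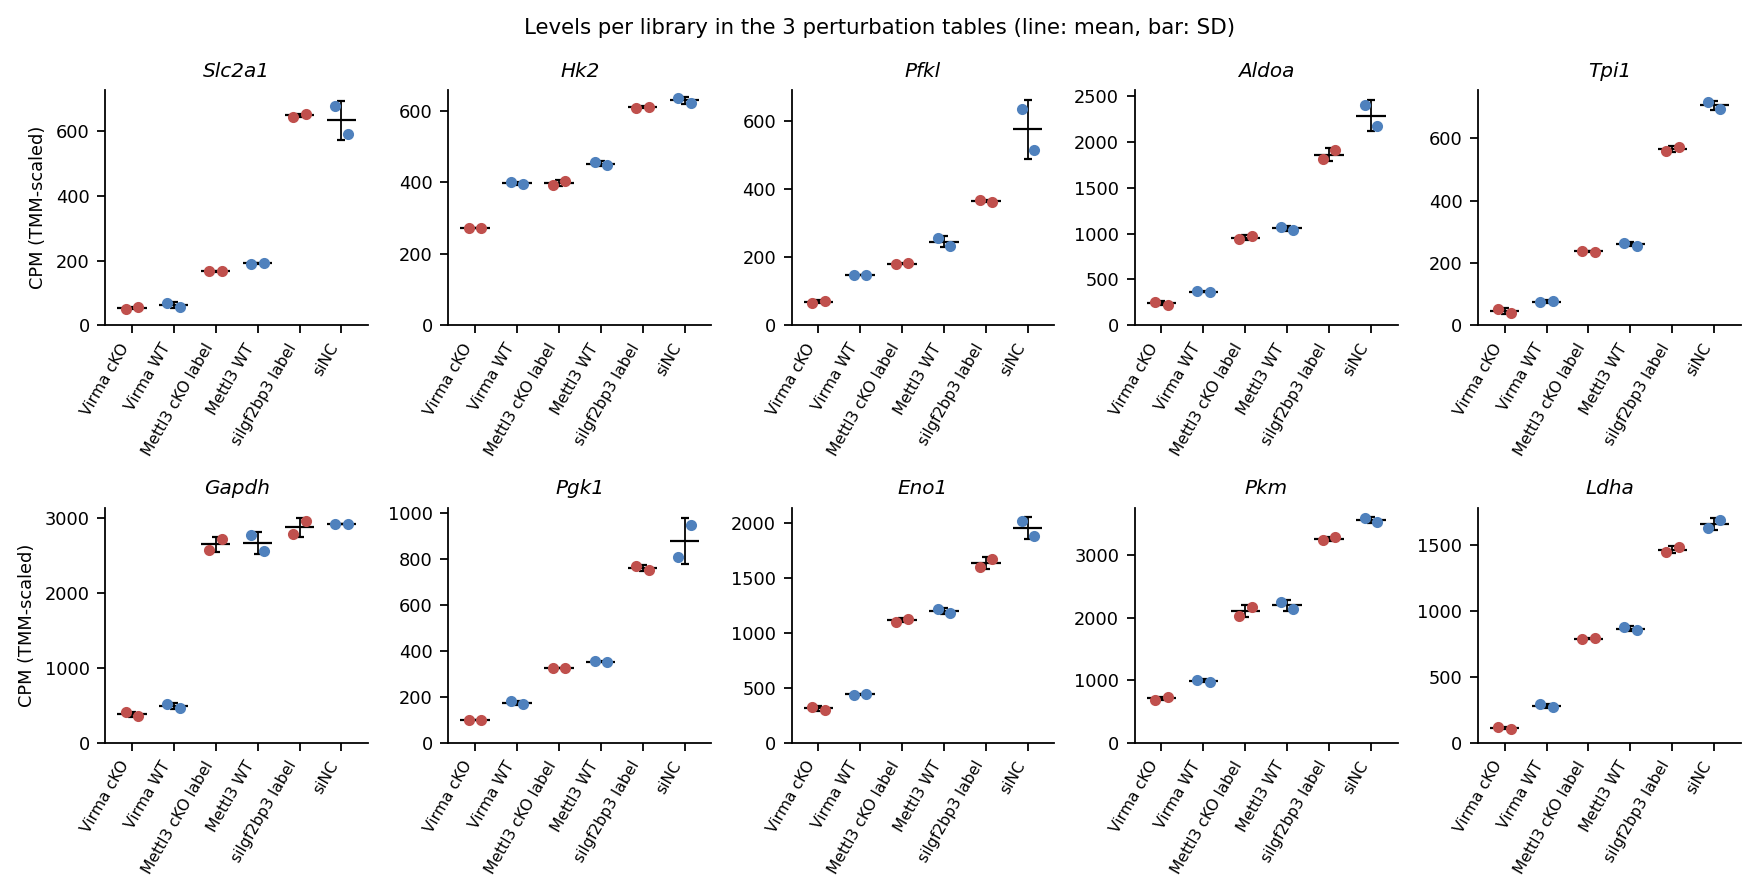
CPM of each gene per library in the Virma, Mettl3 and Igf2bp3 tables (points, with a line for the mean and a bar for the SD; the vertical axes start at 0). Ldha sits at 119.8 and 109 CPM in Virma cKO cells, below 292 and 269 CPM in WT cells. The mean of every gene but Slc2a1 is below its control in all 3 tables. Only Pfkl was called lower in all 3, and its call in the siIgf2bp3 comparison was lost without either siIgf2bp3 library.

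Mettl3 encodes the catalytic subunit of the same complex. Its own counts did not differ between the libraries labelled Mettl3 cKO, at 36.0 ± 1.57 CPM, and the WT libraries, at 36.3 ± 1.55 CPM (SD, n = 2 each; -0.02, adjusted p = 0.978). The labels do not give the deleted part, and counts over a whole gene need not show it. In the libraries labelled Mettl3 cKO, 1 of the 10 genes fell and 0 rose, where 1.44% of 13115 genes tested fell and 2.51% rose. That gene was Pfkl, with 181 and 182 CPM in the libraries labelled cKO and 257 and 234 CPM in WT libraries (-0.44 ± 0.07, adjusted p = 0.000108). The 10 changes ran from -0.44 to -0.01 with a median of -0.14, beside 0.00 for all genes tested. The smallest, Gapdh at -0.01 ± 0.05, turned to 0.00495 with library totals.

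Hk2 had 391 and 404 CPM in the libraries labelled Mettl3 cKO and 458 and 448 CPM in WT libraries (-0.19 ± 0.06, adjusted p = 0.0661), and Slc2a1 had 166 and 169 CPM in the libraries labelled Mettl3 cKO and 190.3 and 193 CPM in WT libraries (-0.19 ± 0.07, adjusted p = 0.113). The libraries did not overlap for 8 of the 10 genes, and for 42.4% of all genes tested. Fibroblast markers rose here too (11 of 12, with none at 0), with sums of 0.354% to 0.372% in the libraries labelled cKO and 0.245% to 0.259% in WT libraries. PrE markers fell (9 of 12, with none at 0), with sums of 0.868% to 0.900% in the libraries labelled cKO and 1.10% to 1.14% in WT libraries. Their part in the result was not tested. Of the other pathway genes 0 rose and 4 fell of 32 tested: Pfkp (-0.42), Hkdc1 (-0.56), Slc2a3 (-0.23) and Slc16a3 (-0.49). Mycn (-0.35) and Egln1 (-0.42) fell. Slc2a3 was lost without any 1 of the 4 libraries (adjusted p = 0.0518 to 0.113) and Egln1 without any 1 of 3 of them (0.0901 to 0.298). Hkdc1 was lost without cKO replicate 1 (-0.39), Mycn without WT replicate 1 (-0.26) or cKO replicate 2 (-0.33), and Slc16a3 without WT replicate 2 (-0.40) or cKO replicate 2 (-0.40). Pfkp was called in each of these fits, which take their spread from the group that still has 2 libraries. With a replicate block Slc2a3 (adjusted p = 0.180) and Egln1 (adjusted p = 0.0713) were not called.

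Igf2bp3 encodes an RNA-binding protein described as a reader of m6A. Its counts averaged 114 ± 4.10 CPM in the libraries labelled siIgf2bp3 and 106 ± 10.3 CPM in siNC libraries (SD, n = 2 each; 0.11, adjusted p = 0.577), so they show no loss of the targeted RNA. In the libraries labelled siIgf2bp3, 1 of the 10 genes fell and 0 rose, where 4.52% of 12918 genes tested fell and 2.79% rose. It was again Pfkl, with 367 and 363 CPM in the libraries labelled siIgf2bp3 and 636 and 515 CPM in siNC libraries (-0.66 ± 0.11, adjusted p = 0.00880). The call was lost without siIgf2bp3 replicate 1 (-0.68, adjusted p = 0.0587) or siIgf2bp3 replicate 2 (-0.67, adjusted p = 0.0576). The count of falling genes was 0 in both of those fits, where 1.57% and 1.95% of all genes tested fell. It was 7 without siNC replicate 1 and 6 without siNC replicate 2, where 10.1% and 19.1% of all fell. Each of these fits takes its spread from the group that still has 2 libraries.

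Tpi1 had 559 and 573 CPM in the libraries labelled siIgf2bp3 and 716 and 695 CPM in siNC libraries (-0.32 ± 0.09, adjusted p = 0.0566). Aldoa had 1808 and 1913 CPM in the libraries labelled siIgf2bp3 and 2403 and 2168 CPM in siNC libraries (-0.30 ± 0.09, adjusted p = 0.0796). Neither passed the test. The libraries of both did not overlap, which held for 57.2% of all genes tested. Eno1 (-0.25), Pgk1 (-0.21), Ldha (-0.18) and Pkm (-0.13) were not called, nor were Hk2 (-0.05), Gapdh (-0.03) and Slc2a1 (0.03). PrE markers fell (12 of 12, with none at 0), with sums of 0.609% to 0.616% in the libraries labelled siIgf2bp3 and 1.55% to 1.64% in siNC libraries. Fibroblast markers took 0.0748% to 0.0751% in the libraries labelled siIgf2bp3 and 0.0649% to 0.0831% in siNC libraries, with 3 of 12 higher. Of the 10 epiblast markers 4 rose and 0 fell, with sums of 0.374% to 0.383% in the libraries labelled siIgf2bp3 and 0.323% to 0.340% in siNC libraries. Mitochondrial transcripts took 0.696% to 0.793% in the libraries labelled siIgf2bp3 and 0.389% to 0.538% in siNC libraries. The part of any of these in the result was not tested. Of the other pathway genes 1 rose, Pdk1 (0.51), and 5 fell of 33 tested, with Hkdc1 (-1.91), Hk1 (-0.46) and Eno2 (-0.63) of smallest p. Myc (0.66) rose and Mycn (-0.65) fell. Without siIgf2bp3 replicate 1 or replicate 2, Pdk1 (0.50 and 0.48), Hk1 (-0.44 and -0.53), Eno2 (-0.71 and -0.58) and Myc (0.59 and 0.68) were not called, nor was Mycn without replicate 2 (-0.60). Hkdc1 was called in each of these fits.

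Across all 46 libraries, with each gene centred on its mean within each table, Aldoa followed the mean of the other 9 genes most closely (Pearson r = 0.984), followed by Ldha (0.946), Pgk1 (0.863), Gapdh (0.858), Tpi1 (0.840), Pfkl (0.835), Slc2a1 (0.791), Eno1 (0.648) and Pkm (0.531). Hk2 ran against them (r = -0.514). Of 8583 other genes with a mean of at least 10 CPM, the 5 whose centred levels were most like the mean of the 10 genes were Mdk (r = 0.917), Upp1 (0.915), Prph (0.899), Ndrg1 (0.898) and Fam162a (0.894). Mdk encodes a growth factor, Upp1 a uridine phosphorylase and Prph an intermediate filament protein. These values describe the libraries, which share tables, groups and scaling, and the actinomycin D table gives 16 of the 46 points.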

How the data were processed

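RNA sequencing of 46 libraries in 19 groups was deposited by the authors as 7 tables of raw counts per gene, which sum to 6854433 to 22280769 counts a library. FastQC 0.12.1, Trim Galore, STAR 2.7.11b, Subread, DESeq2 and the build mm39 are named, per the submitters' processing notes. Annotation and strand setting are not given in the sources used here. The labels' protocols name 2 total RNA kits, with no record of which library had which. Column names of the Virma table carry the word input.

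Groups came from the titles. Each table was fitted by itself in edgeR 4.0.16 (R 4.3.3): genes were kept by filterByExpr (minimum count 10, minimum total 15), scaled with TMM factors and tested over all genes with the quasi-likelihood test, and calls were made at a Benjamini-Hochberg adjusted p under 0.05. There were 9 comparisons. Actinomycin D courses had a slope per state. Among the untreated EPSCs 19 symbols occur more than once, Aldoa included, whose larger row gave its level. The fits were tested on simulated data. The members, gene lists and tests were chosen with earlier results of these data known. Named were the 10 members, up to 4 other pathway genes of smallest adjusted p, called regulators, and targeted genes. 1 gene that this rule names is not reported here. Same-numbered libraries did not deviate together (correlations of -0.055 to 0.041, and -0.13 in the Mettl3 table), so no block was used. Alternatives were RLE factors, library totals, ribosomal protein gene scaling, DESeq2 1.42.0, other filters, a replicate block, other time points and leaving out each library. Sequences are from RefSeq on GRCm38.p6 and exon lengths from GENCODE M21, with no coordinates carried between builds.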

Additional observations from a re-analysis of the deposited data

Results flagged for a closer look

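The slopes under actinomycin D of 2 named genes differed between PrEdiff and EPS cells by a test of the difference itself. The difference was 0.42 log2 units per hour for Slc2a1 (adjusted p = 0.00491) and 0.46 for Mycn (adjusted p = 0.00432), each by the interaction term in edgeR, with the slope higher in PrEdiff cells. No library stood apart from its group by the gap test in the 20 groups tested, the 6 VE and the 6 EPI libraries of each of the 10 genes.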

How the results depend on the processing

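Over the alternatives run on the counts and named genes, 3512 values kept their direction and side of the threshold, 133 counts moved, 36 values reversed, 28 became called and 80 were no longer called. Of the slope differences of single genes only those of Slc2a1 and Mycn entered this tally, and Pdgfra, Gata6 and Nanog entered it for no slope. Differences of the other members often reversed. Of all 10, 9 were positive as reported, against 1 with ribosomal scaling, 2 without 3 h and 3 at 2 h against 0 h alone. The calls of the 10 genes in PrEdiff against EPS cells at 0 h and in VE against EPI kept their counts without any 1 library. In tables of 2 libraries a group, leaving out 1 takes the spread from the remaining pair. The cause of the changes below was not tested, except that leaving out libraries or time points leaves fewer samples.

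The number of the 10 genes called moved as follows. Calls over all genes moved with many of these settings too, as given below. These counts alone are thus no result about the 10 genes. With ribosomal scaling 4 fell in Virma cKO cells, 3 fell in the libraries labelled Mettl3 cKO, 5 were higher and 2 lower in PrE-E cells, 0 gained and 2 lost share in PrEdiff cells, 0 gained share in EPS cells, and 0 slopes were higher in PrEdiff cells. With library totals 1 was higher in PrE-E cells. With DESeq2 2 fell in the libraries labelled siIgf2bp3 and 2 slopes were higher in PrEdiff cells. With no filter on low counts 2 fell in the libraries labelled Mettl3 cKO and 3 in those labelled siIgf2bp3. From 3 h against 0 h alone 10 slopes were higher in PrEdiff cells, from 2 h against 0 h alone 6 were lower, and 2 were higher without both EPS libraries at 3 h, a setting added after seeing the data. Leaving out 1 library gave 0 to 7 falls in the siIgf2bp3 comparison and 1 to 2 rises in the PrE-E comparison.

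Reversed values, slope differences apart, are on the log2 scale. With ribosomal scaling Slc2a1 was 0.19 and Gapdh 0.0328 in Virma cKO cells, Ldha 0.0709 in PrE-E cells and Pfkl 0.0534 in VE. PrEdiff slopes were then -0.23 for Slc2a1, -0.14 for Pfkl, -0.0690 for Aldoa, -0.10 for Tpi1, -0.0299 for Gapdh, -0.0608 for Pgk1, -0.0889 for Eno1, -0.0894 for Pkm, -0.13 for Ldha, -0.0627 for Aldoc, -0.0560 for Gpi1, -0.14 for Pgam1 and -0.19 for Pfkm. EPS slopes were -0.0195 for Pfkl, -0.0573 for Aldoa, -0.00840 for Tpi1, -0.000764 for Eno1, -0.0347 for Ldha, -0.0785 for Dlat, -0.0426 for Pfkp and -0.0635 for Pfkm. With library totals Gapdh was 0.00495 in the libraries labelled Mettl3 cKO, and Hk2 was -0.0288 and Aldoa -0.0232 in PrE-E cells. Without 1 library at a time, Gapdh ran from -0.0650 to 0.0459 and Mettl3 from -0.0709 to 0.0305 in the Mettl3 comparison. In the siIgf2bp3 comparison Slc2a1 ran from -0.0593 to 0.11, Gapdh from -0.10 to 0.00283 and Igf2bp3 from -0.0131 to 0.21, and Hk2 ran from -0.00909 to 0.0934 in the PrE-E comparison.

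A replicate block changed no call of the 10 genes. It ended the calls of Slc2a3 (-0.23, adjusted p = 0.180) and Egln1 (-0.42, adjusted p = 0.0713) in the libraries labelled Mettl3 cKO and of Gata6 in PrE-E cells (7.06, adjusted p = 0.0795), moved the genes called in the siIgf2bp3 comparison to 1467, against 945 without it, and the falls in the Mettl3 comparison to 117, against 189. Since same-numbered Mettl3 libraries deviated in opposite ways, the crossed pairing with a block was added after seeing the data. It called 1421 genes in both directions together, against 518 without a block, and 9 falls among the 10. The newly called falls were small, from -0.06 for Pkm to -0.19 for Slc2a1, the same sizes as without a block. The pairing was picked from how these libraries deviated, so its calls give no separate support.

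Over all genes, the Virma comparison called 1984 higher and 2364 lower, against 3001 and 1491 with library totals and 4890 and 738 with ribosomal scaling. The Mettl3 comparison called 518 genes, against 273 with ribosomal scaling and 247 with DESeq2, and the siIgf2bp3 comparison 1699 with no filter. Ribosomal scaling called 2 gains and 9152 losses in PrEdiff cells, 20 and 4344 in EPS cells, and 2 slope differences. Library totals called 533 gains and 4805 losses in PrEdiff cells and 476 gains in EPS cells. Without 3 h the counts were 8381 in PrEdiff cells, 9442 in EPS cells and 926 for the difference. The difference called 180 genes as reported, 528 with DESeq2, 6681 from 3 h alone, 4281 from 2 h alone and 4140 without both EPS libraries at 3 h. With 2 libraries a group, small changes were near the limit of what could be called.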

Other observations

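The untreated EPSC table enters no comparison. In its 2 libraries the 10 genes took 0.835% to 0.838% of counts. Slc2a1 had 189.9 and 183 CPM, Hk2 445 and 454 CPM, Pfkl 141 and 129.5 CPM, Gapdh 2101 and 2091 CPM, Pgk1 273 and 266 CPM and Ldha 653 and 657 CPM. Per kilobase of exon Gapdh was highest, at 1402 CPM per kb, followed by Pkm at 864, and Pfkl was lowest at 36.2.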
